A study of Mus musculus with 6 samples.

Results

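The genes described here encode receptors for dopamine and for noradrenaline and adrenaline. They were taken by name from the table of expression values: the dopamine receptor genes Drd2 and Drd4, the alpha-1 adrenoceptor genes Adra1a and Adra1b, the alpha-2 genes Adra2a, Adra2b and Adra2c, and the beta genes Adrb1 and Adrb3, which makes 9 of 26728 entries. RNA was sequenced from 3 pools of carotid body, the oxygen-sensing organ at the fork of the carotid artery, and 3 pools of adrenal medulla, the inner part of the adrenal gland that secretes catecholamines. All 6 pools came from untreated adult C57/BL6 mice, with 18 carotid bodies or 10 adrenal medullas taken from 10 mice per pool, so each value is the average of several animals and n counts pools. The libraries are of dissected tissue and hold every cell type of the organ. The comparison asks which catecholamine receptor transcripts distinguish the 2 tissues.

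Glomus cells of the carotid body release dopamine and chromaffin cells of the adrenal medulla release mostly adrenaline and noradrenaline. All these receptors span the cell membrane and act through G proteins. Drd2 and Drd4 (D2-class) and the alpha-2 receptors couple to inhibitory Gi/o proteins, lower cyclic AMP and often sit on the releasing cell as brakes on secretion. The alpha-1 receptors couple to Gq and phospholipase C, and the beta receptors couple to Gs and raise cyclic AMP. D2 receptors on glomus cells are known to damp their response to low oxygen, and beta-3 receptors are best known from fat cells.

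Both tissues carried transcripts of the enzymes that make the receptors' ligands. Th and Ddc, the enzymes that make dopamine, were at 434 to 646 and 777 to 917 RPKM (reads scaled to mRNA length and to the mapped reads of the library) in the carotid body pools and at 887 to 2489 and 210 to 282 RPKM in the adrenal medulla pools. Dbh and Pnmt, which turn dopamine into noradrenaline and then adrenaline, were at 10.0 to 21.4 and 1.81 to 16.8 RPKM in the carotid body and at 351 to 822 and 2708 to 6042 RPKM in the adrenal medulla. Limma called Ddc higher in the carotid body (log2 1.78, adjusted p = 9.15e-04), and Dbh (-5.24, adjusted p = 4.76e-05), Pnmt (-9.60, adjusted p = 3.29e-05) and Th (-1.61, adjusted p = 0.0218) higher in the adrenal medulla. Th did not pass when carotid body pool 1 (0.0693), carotid body pool 2 (0.0611) or adrenal medulla pool 2 (0.0869) was left out.

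Several libraries stood apart. Carotid body pool 2 held a summed 3120 RPKM of 8 adipocyte markers, against 220 to 701 RPKM in the other 5 libraries. The adrenal cortex markers summed to 185 RPKM in carotid body pool 1, 89.9 in pool 2 and 77.9 in pool 3, against 11108 to 14077 RPKM in the adrenal medulla libraries, where cortex transcripts were thus abundant. Adrenal medulla pool 3 held 7 reads of 4 Y-linked genes, and the other 5 libraries held 1292 to 3277. Depth was 13266225 to 16445925 reads per library, and 3 reads, taken as the floor of reading, equal 0.0427 to 0.0529 RPKM for Adra1a.

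All 9 receptor genes were read at low levels. The median of the 13357 genes tested was 6.77 to 8.78 RPKM per library, and the receptor genes lay under 7 RPKM in every library except for Adrb3 in carotid body pool 2. In the carotid body the order of mean levels was Adrb3, Adrb1, Drd2, Adra2c, Adra2a, Adra1b, Adra2b, Adra1a and Drd4. Neighbours in that order overlapped in their pools except Adra2c and Adra2a. In the adrenal medulla the order was Adra2c, Drd4, Adrb3, Drd2, Adra2b, Adrb1, Adra1b, Adra2a and Adra1a, and neighbours overlapped except Adra1b and Adra2a. The first place of Adrb3 in the carotid body rested on pool 2. Without that pool its mean was 0.619 RPKM and it stood 7th, and Adra1a, at 0.0150 RPKM, stood last behind Drd4. The mRNA lengths that the authors divided by were 1.549 kb for Drd2 and 1.366 kb for Drd4, which is 60.8% and 48.8% of the GENCODE transcript with the same accession. The other 7 members had listed lengths of 84.4% to 106% of that transcript. A listed length is the same in all 6 libraries and so leaves the ratio of a gene's values between tissues unchanged. It does bear on the order of genes within a tissue, on the 1 RPKM filter and on differences of log2(RPKM + 1). With the same reads, Drd2 and Drd4 would have lower RPKM and smaller log2 differences at the GENCODE lengths. The counting method is not given, so whether a longer transcript would also take more reads is not known. Whether they would pass the filter or be called was not tested.

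**Figure D1:**
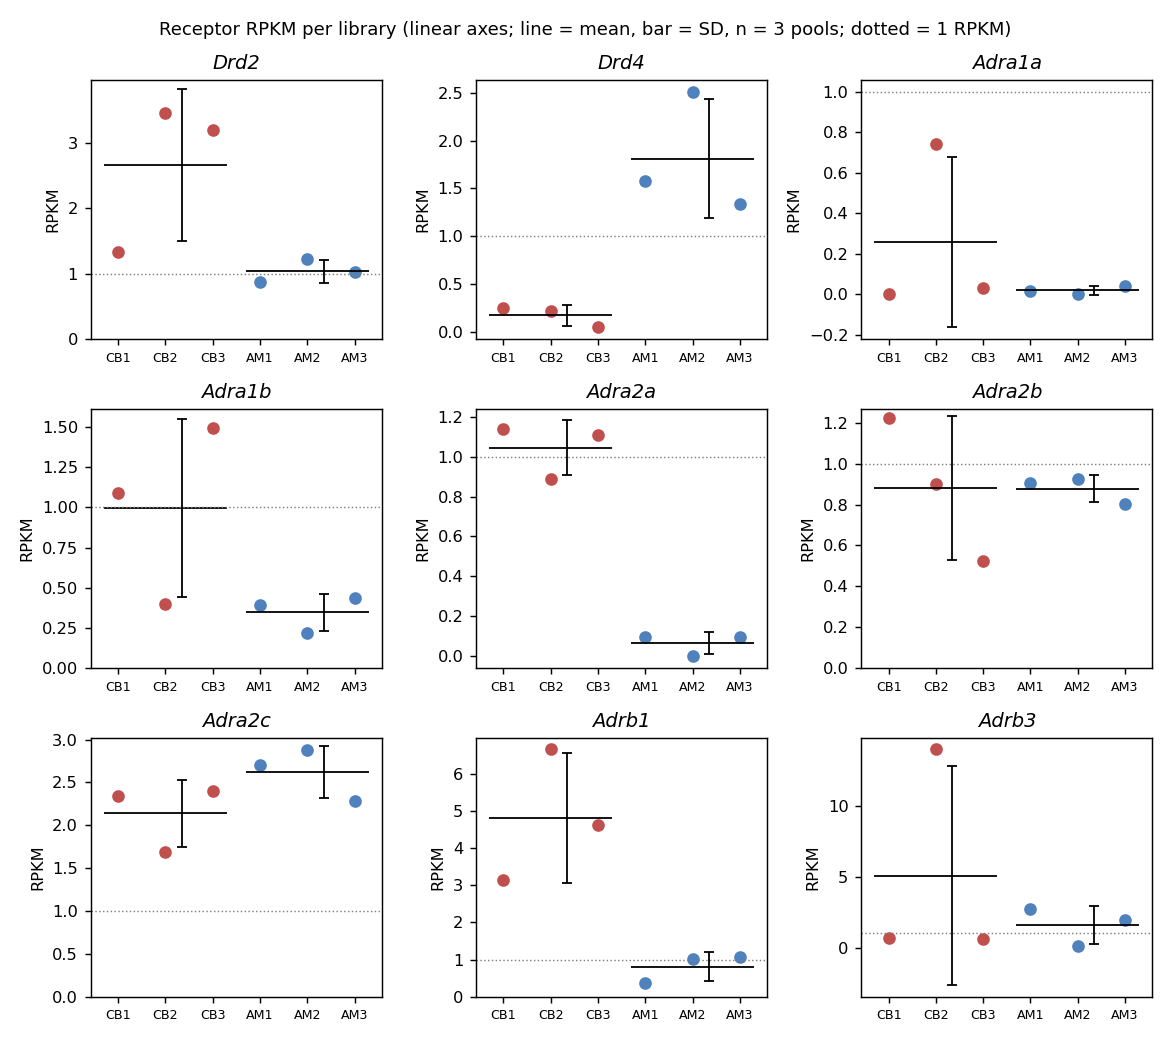
RPKM (linear axes) of each of the 9 receptor genes in carotid body pools (CB1 to CB3, red) and adrenal medulla pools (AM1 to AM3, blue), with the mean as a line and the SD as a bar. Adrb1, Adra2a and Drd2 lie higher in every carotid body pool than in any adrenal medulla pool, Drd4 lies the other way, and Adrb3 and Adra1a have 1 high pool, CB2.

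The promoter windows of the 2 receptor genes called different between the tissues, Adrb1 and Drd4, and of Drd2, the closest relative of Drd4 among the members, are shown because the largest differences among the tested members, and the contrast between the D2-class pair, involve these 3 genes. Each is the 250 bases before the RefSeq transcription start in GRCm38.p6, on the plus strand, and capitals mark matches to 3 short motifs searched on both strands: the GC box GGGCGG, the cyclic AMP response element core TGACG and the hypoxia factor core ACGTG.
Adrb1, chr19:56721867-56722116: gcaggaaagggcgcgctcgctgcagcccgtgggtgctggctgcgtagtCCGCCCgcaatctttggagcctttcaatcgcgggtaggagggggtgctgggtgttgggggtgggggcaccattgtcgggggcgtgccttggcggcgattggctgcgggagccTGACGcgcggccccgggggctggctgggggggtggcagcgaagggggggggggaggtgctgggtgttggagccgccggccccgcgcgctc
Drd2, chr9:49340153-49340402: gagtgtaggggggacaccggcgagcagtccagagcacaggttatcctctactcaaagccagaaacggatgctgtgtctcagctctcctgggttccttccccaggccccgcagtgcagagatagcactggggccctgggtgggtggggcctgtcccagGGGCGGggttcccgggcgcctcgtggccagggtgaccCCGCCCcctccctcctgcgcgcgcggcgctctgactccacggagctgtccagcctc
Drd4, chr7:141291768-141292017: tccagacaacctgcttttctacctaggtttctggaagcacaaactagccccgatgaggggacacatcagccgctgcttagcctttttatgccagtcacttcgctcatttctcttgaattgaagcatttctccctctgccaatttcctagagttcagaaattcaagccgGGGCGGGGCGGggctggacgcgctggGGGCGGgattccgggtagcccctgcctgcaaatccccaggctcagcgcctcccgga
The GC box occurred 1 time before Adrb1, 2 times before Drd2 and 3 times before Drd4, where 2 of the 3 overlap by 1 base. It was found in 32.7% of all 32851 promoter windows of that length. TGACG occurred 1 time before Adrb1 and not in the other 2 windows, against 17.8% of all windows, and ACGTG was in none of the 3, against 16.6%. The windows held 74.0% (Adrb1), 68.8% (Drd2) and 56.8% (Drd4) G and C, against a median of 52.4% over all windows. These 3 genes and the motifs were chosen after the values were seen, and a match is a description only. RefSeq promoter entries were matched for 7 of the 9 members. Among the windows not shown, ACGTG was found before Adra2a and Adra2c and not before Adra1b or Adra2b. TGACG was found before Adra2a only. The Drd4 window overlaps a GENCODE exon of Drd4.

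Of the 9 genes, 5 reached 1 RPKM in at least 3 libraries and were tested with limma on log2(RPKM + 1). Adrb1 was called higher in the carotid body and Drd4 higher in the adrenal medulla at a Benjamini-Hochberg adjusted p under 0.05, and Drd2, Adra2c and Adrb3 were not called. Among all 13357 tested genes, 21.9% were called, 14.2% with the carotid body on the higher side and 7.73% with the adrenal medulla on the higher side. The 5 tested members had a median log2 difference of 0.58, carotid body minus adrenal medulla, against 0.02 over all tested genes. That median is the value of Adrb3, which was not called and was -0.49 without carotid body pool 2, so it does not show a lean of the members. Drd4 passed the filter only through its 3 adrenal medulla libraries. In whole tissue, fewer cells of a type and less RNA per cell cannot be told apart. With limma's treat, which asks for more than a 2-fold difference on the same scale, the adjusted p was 0.258 for Adrb1 and 1 for the other 4, and 3.63% of all tested genes passed it toward the carotid body and 1.77% toward the adrenal medulla.

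**Figure D2:**
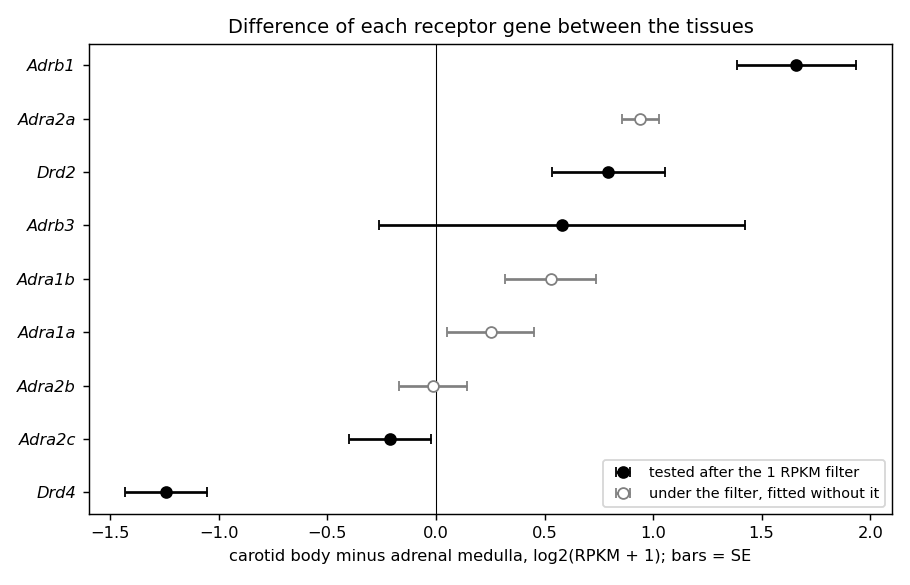
Difference between carotid body and adrenal medulla on the log2(RPKM + 1) scale for each receptor gene, with its standard error as a bar. Filled points passed the 1 RPKM filter and open points were fitted without it. Adrb1 is farthest to the right at 1.66 and Drd4 farthest to the left at -1.24.

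Drd2 encodes the D2 dopamine receptor, the autoreceptor of glomus cells. It was at 1.33, 3.46 and 3.19 RPKM in carotid body pools 1, 2 and 3 (30, 71 and 77 reads) and at 0.865, 1.22 and 1.02 RPKM in adrenal medulla pools 1, 2 and 3 (18, 27 and 26 reads). All carotid body pools lay above all adrenal medulla pools, a separation in that direction that 22.3% of tested genes showed, but carotid body pool 1 lay close to adrenal medulla pool 2. The log2 difference was 0.79 ± 0.26 (SE), with a 95% interval of 0.20 to 1.39, and did not pass the test (limma adjusted p = 0.0631). Blocking on the pool number takes same-numbered pools as pairs, although the pools numbered 3 differed in the sex makeup of their mice. With that block the difference was called (0.79 ± 0.20, limma adjusted p = 0.0286). Without carotid body pool 1 it was also called, at 1.09 (limma adjusted p = 0.00785), while leaving out any other library gave adjusted p-values of 0.0841 to 0.190. Adrenal cortex markers summed to 185 RPKM in that pool 1, and their part in its Drd2 value was not tested. The span of the predicted gene Gm46111, introns included, overlaps that of Drd2 in RefSeq. Whether their exons overlap was not tested, and the labels do not say whether strand was kept, so its part in the Drd2 reads is not known.

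The catecholamine cell markers Th and Chga (log2 -3.39, limma adjusted p = 1.53e-04) were higher in the adrenal medulla libraries. Per 1000 RPKM of Th, Drd2 stood at 2.42, 7.96 and 4.95 RPKM in carotid body pools 1, 2 and 3 and at 0.975, 0.491 and 0.510 RPKM in the adrenal medulla pools. Per 1000 RPKM of Chga, the chromogranin A gene, it stood at 2.70, 10.5 and 6.05 against 0.252, 0.217 and 0.197. The groups did not overlap in either ratio. For the test, 1 was added to every RPKM value before the log2 ratio was taken. This raises the ratio of a low gene to an abundant gene and shrinks its difference between the tissues. On that scale the ratio of Drd2 to Th was higher in the carotid body by 2.41, and that to Chga by 4.19. An exact two-sided permutation test gave p = 0.1 for each of these 2 ratios, or 0.1 after Benjamini-Hochberg adjustment over both, which is the smallest value that 3 pools against 3 allow. Th and Chga themselves differed between the tissues, so these ratios carry their differences as well as that of Drd2.

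**Figure D3:**
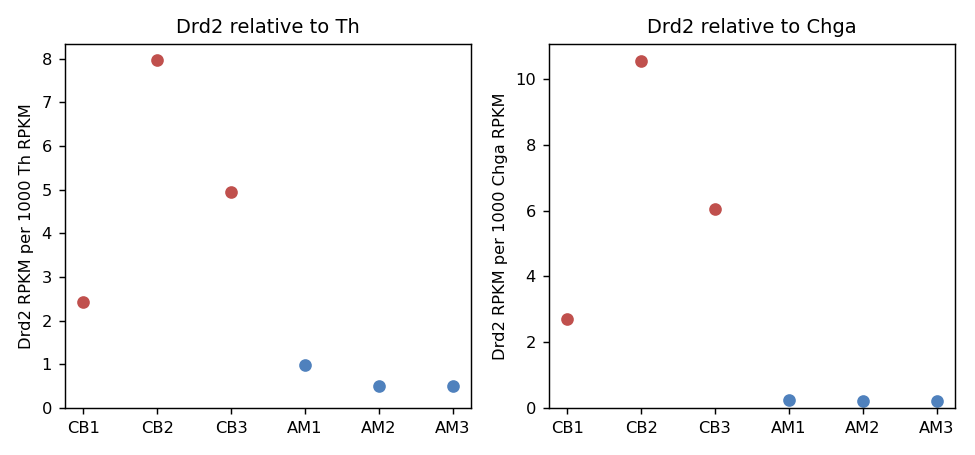
Drd2 RPKM per 1000 RPKM of Th (left) and of Chga (right) in each carotid body (CB1 to CB3, red) and adrenal medulla (AM1 to AM3, blue) pool, on linear axes from 0. The carotid body pools sit at 2.42 to 7.96 and 2.70 to 10.5, above the adrenal medulla pools at 0.491 to 0.975 and 0.197 to 0.252.

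Drd4 encodes the D4 receptor, the other D2-class member, and ran the opposite way. It was at 0.252, 0.221 and 0.0470 RPKM in carotid body pools 1, 2 and 3, which is 5, 4 and 1 reads, and at 1.58, 2.51 and 1.34 RPKM in the adrenal medulla pools, with 29, 49 and 30 reads. The groups were well separated, as they were in that direction for 14.7% of tested genes. The log2 difference was -1.24 ± 0.19 (SE, limma adjusted p = 0.00174), and this scale understates it because the carotid body values lie far below the pseudocount of 1. Summed over pools and scaled to depth, the reads were 10.6 times as many in the adrenal medulla (exact 95% interval 5.55 to 22.7, for counting error only). Adrenal cortex markers, 8 of 8 called higher in the adrenal medulla, summed to 11108 to 14077 RPKM there against 77.9 to 185, and their part in the Drd4 difference was not tested. The call held without each library in turn, with adjusted p-values of 0.00113 to 0.00968 among the filtered genes and of up to 0.0288 with no filter. Deaf1, the gene within 2 kb of Drd4 in RefSeq, was at 8.65 to 12.0 RPKM in the carotid body and 7.01 to 12.6 RPKM in the adrenal medulla and was not called (log2 0.09).

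Other dopamine receptor genes were read in the same libraries. Drd1a, which encodes the Gs-coupled D1 receptor, was at 2.28, 1.72 and 1.03 RPKM in the carotid body pools and at 0.0420, 0.0198 and 0 RPKM in the adrenal medulla pools. It was called higher in the carotid body (log2 1.36 ± 0.19, limma adjusted p = 0.00105), having passed the filter only there. Its 255 reads against 3 give a depth-scaled ratio of 86.6 with an exact 95% counting interval of 29.3 to 423. Drd3 and Drd5 had 0 reads in all 6 libraries. The exact 95% interval for the summed reads of each tissue reaches up to 3.69.

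Adrb1 encodes the beta-1 adrenoceptor, the main beta receptor of the heart. It was at 3.15, 6.66 and 4.62 RPKM in carotid body pools 1, 2 and 3, with 114, 220 and 179 reads, and at 0.359, 1.01 and 1.07 RPKM in adrenal medulla pools 1, 2 and 3, with 12, 36 and 44 reads. The carotid body mean was 4.81 ± 1.76 RPKM against 0.815 ± 0.396 (SD, n = 3 pools each), and no pools overlapped. The log2 difference was 1.66 ± 0.27 (SE, limma adjusted p = 0.00268), or 5.68 times the reads with a counting interval of 4.54 to 7.17. Leaving out 1 library gave 1.44 to 1.88, called each time. With no filter and both carotid body pool 2 and the third adrenal medulla pool left out, it was 1.55 and did not pass (limma adjusted p = 0.0523). The tissues also differed in markers of other cells. Fibroblast markers (8 of 8 called higher in the carotid body, none at 0) summed to 2430 to 3116 RPKM there against 70.9 to 183, and smooth muscle and pericyte markers (7 of 8, none at 0) to 2506 to 3029 against 98.6 to 103. Glia markers (8 of 8, none at 0) summed to 325 to 350 against 27.5 to 46.3 RPKM. Their part in the Adrb1 difference was not tested. The coding region of Adrb1 lies in 1 exon, as it does for Adra2a, Adra2b and Adra2c.

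Adrb3 encodes the beta-3 adrenoceptor, which drives fat breakdown and heat production in fat cells. It was at 14.1 RPKM in carotid body pool 2 (521 reads) but at 0.641 and 0.597 RPKM in pools 1 and 3 (26 reads each). The adrenal medulla pools 1, 2 and 3 were at 2.72, 0.0752 and 1.96 RPKM, or 102, 3 and 90 reads. The tissues overlapped, and the log2 difference of 0.58 ± 0.84 (SE) did not pass the test (limma adjusted p = 0.715). Its 95% interval was -1.35 to 2.51. The span of the predicted gene Gm45470 overlaps that of Adrb3 in RefSeq. Whether their exons overlap, and its part in the Adrb3 reads, were not tested. Got1l1, within 2 kb, was at 0.0950 to 0.667 RPKM. Without carotid body pool 2 the difference was -0.49, on the other side of 0 (limma adjusted p = 0.552).

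The adipocyte gene Adipoq, which encodes adiponectin, was at 26.7, 338 and 53.0 RPKM in carotid body pools 1, 2 and 3 and at 68.0, 2.73 and 79.8 RPKM in adrenal medulla pools 1, 2 and 3. Both Adipoq and Adrb3 were highest in carotid body pool 2 and lowest in adrenal medulla pool 2. Of the other adipocyte markers, Cidec, Cidea and Lep had the same highest and lowest pools, and Retn, Fabp4, Plin1 and Ucp1 did not. Retn was highest in adrenal medulla pool 3 (71.5 RPKM), and Fabp4 and Plin1 were lowest in carotid body pool 1 (168 and 0.855 RPKM). Ucp1, the uncoupling protein of brown fat, was at 221 RPKM in carotid body pool 2 and at 0 to 2.48 RPKM elsewhere, and was listed at 0 in carotid body pool 1 and adrenal medulla pool 1. Of the 8 adipocyte markers, 7 were tested and 0 were called between the tissues by limma, 0 also at an unadjusted p under 0.05. The list summed to 248 to 3120 RPKM in the carotid body and 220 to 701 in the adrenal medulla. The part of fat cells in the Adrb3 values was not tested.

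**Figure D4:**
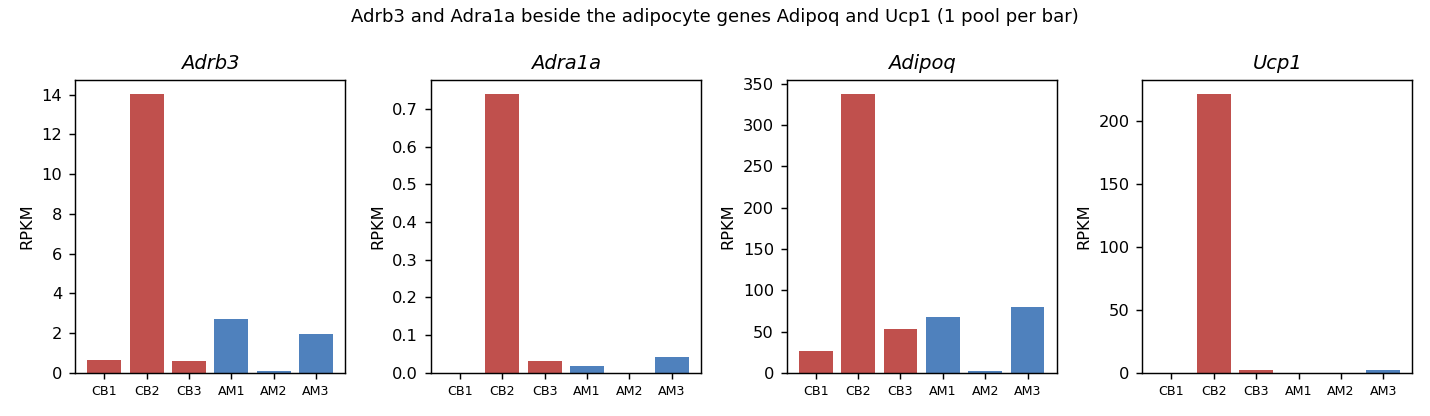
RPKM of Adrb3 and Adra1a beside that of the adipocyte genes Adipoq and Ucp1, 1 bar per pool (CB1 to CB3 carotid body in red, AM1 to AM3 adrenal medulla in blue), on linear axes from 0. CB2 is the highest bar in all 4 panels, at 14.1, 0.740, 338 and 221 RPKM.

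Adra2c, the alpha-2C receptor known as a brake on adrenaline release from chromaffin cells, was the tested member with the smallest difference. It was at 2.34, 1.69 and 2.40 RPKM in carotid body pools 1, 2 and 3 (109, 72 and 120 reads) and at 2.71, 2.88 and 2.29 RPKM in adrenal medulla pools 1, 2 and 3 (117, 132 and 121 reads). The pools overlapped. The log2 difference of -0.21 ± 0.19 (SE) did not pass the test (limma adjusted p = 0.513), and its 95% interval of -0.64 to 0.22 does not show that the levels were equal.

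Adra2a, Adra2b, Adra1a and Adra1b stayed under the filter and have no main test. Adra2a, the alpha-2A receptor that restrains noradrenaline release from sympathetic nerve endings, was at 1.14, 0.888 and 1.11 RPKM in the carotid body (63, 45 and 66 reads) and at 0.0975, 0 and 0.0956 RPKM in the adrenal medulla (5, 0 and 6 reads). The groups lay far apart. The summed reads were 16.1 times as many in the carotid body, with a counting interval of 8.79 to 32.9. With no filter on low values, limma called it higher in the carotid body (log2 0.94, adjusted p = 6.59e-04), where 11.3% of 19505 entries were called in that direction and 5.73% in the other. On reads recovered from the RPKM values, limma voom gave 4.48 (adjusted p = 0.00373), with 13.3% of 17250 entries called that way and 7.19% the other way. The unfiltered call held without each library, at adjusted p-values of 0.00315 to 0.00917. The fibroblast, glia and smooth muscle marker sums given above differed between the same libraries, and Prph and Nefh, 2 of the 3 neuron markers of 7 tested that were called higher in the carotid body, were at 28.6 ± 4.90 and 12.8 ± 7.14 against 7.57 ± 1.65 and 4.19 ± 0.814 RPKM (SD, n = 3). The summed neuron markers were at 71.8 to 81.8 against 49.3 to 68.4 RPKM, none at 0. Their part in the Adra2a difference was not tested.

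Adra2b, the alpha-2B receptor of blood vessels, was at 1.23, 0.900 and 0.522 RPKM in carotid body pools 1, 2 and 3 and at 0.908, 0.925 and 0.803 RPKM in the adrenal medulla pools. The carotid body pools lay on both sides of the adrenal medulla pools. It had 149 and 152 reads in all, a depth-scaled ratio of 0.999 with a counting interval of 0.791 to 1.26, and limma without the filter gave an adjusted p of 0.972. The 3 alpha-2 genes, all Gi/o-coupled, were thus split: Adra2a was called higher in the carotid body without the filter, and Adra2b and Adra2c were not called.

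The alpha-1 genes were low. Adra1b, which encodes the alpha-1B receptor, was at 1.09, 0.398 and 1.49 RPKM in the carotid body and at 0.393, 0.217 and 0.434 RPKM in the adrenal medulla. Carotid body pool 2 lay within the adrenal medulla range. Without the filter the log2 difference was 0.53 (limma adjusted p = 0.147), and without carotid body pool 2 as well it was 0.76 and was called (limma adjusted p = 0.0243). Adra1a, the alpha-1A receptor, had 0, 42 and 2 reads in carotid body pools 1, 2 and 3 and 1, 0 and 3 in the adrenal medulla pools, so 1 pool held 0.740 RPKM and the other 5 at most 0.0427 RPKM. That pool is the one with the highest adipocyte markers, whose part in the value was not tested. Without the filter Adra1a was not called (limma adjusted p = 0.479). Adra1d, the remaining alpha-1 gene, had 1, 0 and 1 reads in the carotid body and 9, 0 and 8 in the adrenal medulla.

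The makeup of the 9 genes differed from pool to pool. Their summed level was 11.2, 29.0 and 14.0 RPKM in carotid body pools 1, 2 and 3 and 9.64, 8.84 and 9.05 RPKM in the adrenal medulla pools. Adrb1 gave 28.2%, 23.0% and 32.9% of it in the carotid body and 3.72%, 11.5% and 11.9% in the adrenal medulla. Drd4 gave 2.26%, 0.761% and 0.336% against 16.4%, 28.4% and 14.8%. Adrb3 alone gave 48.5% in carotid body pool 2, and 0.850% to 28.2% in the other 5 libraries. The 5 Gi/o-coupled members summed to 6.29, 7.15 and 7.27 RPKM in the carotid body and to 6.16, 7.54 and 5.54 RPKM in the adrenal medulla. These sums overlapped between the tissues. The share of Drd2 in the 9 genes also overlapped, at 11.9%, 11.9% and 22.8% in the carotid body and 8.97%, 13.8% and 11.3% in the adrenal medulla.

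**Figure D5:**
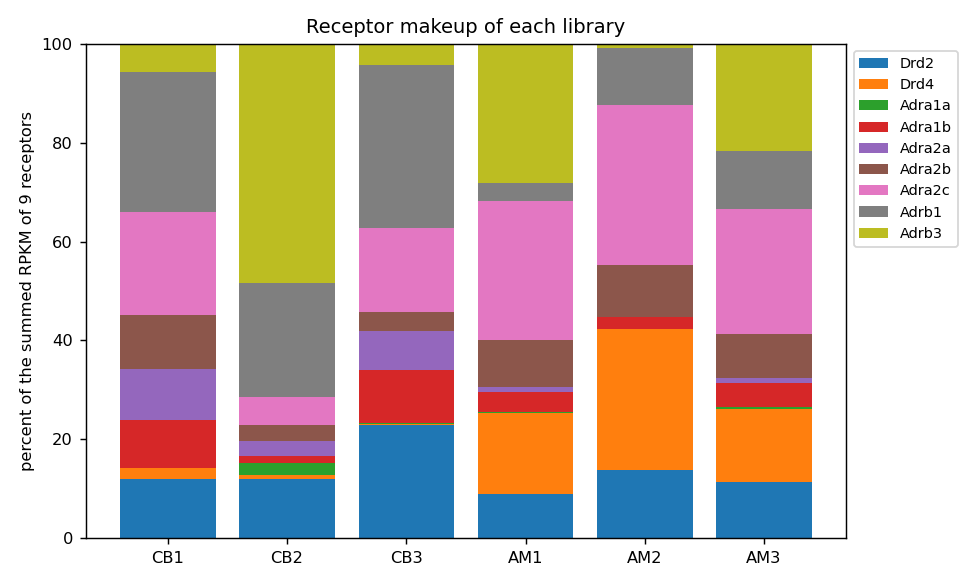
Share of each receptor gene in the summed RPKM of the 9 genes, 1 stacked bar per pool (CB1 to CB3 carotid body, AM1 to AM3 adrenal medulla), in percent. Drd4 takes 14.8% to 28.4% in the adrenal medulla and at most 2.26% in the carotid body, and Adrb3 takes 48.5% of CB2.

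Genes of the receptors' signalling pathway were measured from lists chosen by role. Of 10 G protein alpha subunits, 3 were called with more in the carotid body and 1 with more in the adrenal medulla, and the other 6 did not pass. Over all tested genes, 14.2% were called toward the carotid body and 7.73% toward the adrenal medulla. No list was tested as a set. Gnal, the olfactory-type Gs subunit that D1 receptors use in the striatum, was at 10.9 ± 2.60 against 3.87 ± 1.02 RPKM (log2 1.29, limma adjusted p = 0.00765), called in 16 of 16 alternatives. Gna14 of the Gq family was at 1.75 to 1.94 against 3.81 to 15.9 RPKM (log2 -1.80, limma adjusted p = 0.0142). It did not pass once the first carotid body pool was left out (adjusted p = 0.0565). Gnas (log2 0.84, adjusted p = 0.0419) and Gnai2 (0.88, adjusted p = 0.0387) were the other 2. Gnas lost its call without any 1 library other than carotid body pool 2 (limma adjusted p of 0.0634 to 0.160) and with the pool block (0.0573), no filter (0.0804), median-ratio scaling (0.105) or quantile scaling (0.0530), and was called in 7 of 16 alternatives. Gnai2 lost it without any 1 library other than adrenal medulla pool 3 (0.0796 to 0.127) and with median-ratio scaling (0.0645).

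Of 7 adenylyl cyclases tested, the enzymes that make cyclic AMP, 2 were called, both with more in the carotid body. The share called that way over all tested genes was 14.2%. Adcy4 was at 7.82 ± 1.31 against 0.755 ± 0.145 RPKM (SD, n = 3, log2 2.32, limma adjusted p = 8.86e-05), and passed the filter only through the carotid body. Adcy5, the striatal isoform that D2 receptors inhibit, was at 4.27 ± 0.768 against 2.15 ± 0.638 RPKM (log2 0.75, adjusted p = 0.0467) and was called in 6 of 16 alternatives, with adjusted p-values of 0.0623 to 0.162 without any 1 library other than adrenal medulla pool 3. Ppp1r1b, which encodes DARPP-32, the phosphatase regulator downstream of D1 and D2 receptors, was at 1.80 ± 0.364 against 0.158 ± 0.0510 RPKM (log2 1.26, adjusted p = 5.38e-04), after passing the filter only through the carotid body. Ncs1, the calcium sensor that binds D2 receptors, was at 3.71 ± 0.340 against 1.79 ± 0.118 RPKM (log2 0.75, adjusted p = 0.0154). It did not pass once the third carotid body pool (0.0668) or the second adrenal medulla pool (0.0584) was left out. These were the 2 called of 4 tested in the list of D2 partners and GIRK potassium channels, whose Kcnj3, Kcnj5, Kcnj6, Kcnj9 and Rgs9 did not pass the filter.

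Receptor kinases and arrestins, which switch activated receptors off, numbered 7 tested, 1 of them called, against 21.9% of all tested genes. Arrb1, beta-arrestin 1, was at 11.5 ± 1.64 against 5.16 ± 1.67 RPKM (log2 1.05, adjusted p = 0.0188). Its adjusted p was 0.0615 to 0.0755 when 1 of carotid body pools 1 and 3 or adrenal medulla pools 1 and 2 was left out. Of 6 protein kinase A subunits and 3 tested phospholipase C beta genes, limma called 0. At an unadjusted p under 0.05, Prkar2a and Plcb1 and Plcb3 passed, at log2 differences of 0.63, -1.16 and 0.58. The median log2 difference was 0.38 for the G protein list, 0.28 for the cyclases, 0.22 for the kinases and arrestins, -0.31 for the kinase A subunits 0.58 for the phospholipases and 0.70 for the D2 partners and channels, against 0.02 over all tested genes.

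The tested genes with the profiles most like each member over the 6 libraries were found. The measure was the root mean square difference between log2(RPKM + 1) profiles, each centred on its own mean. Genes picked in this way share the member's pattern by choice, so their values are a description only. For Drd2 these were Tef (0.0970), Kif5a (0.104) and Hs3st1 (0.110), each lower in carotid body pool 1 than in pools 2 and 3. For Drd4 they were Panx1 (0.0906), Cdk5r1 (0.116) and Mbnl3 (0.117). Adrb1 was closest to Pth1r (0.123), Gpr162 (0.124) and Insc (0.129), and Adra2c to 1500011B03Rik (0.0425), Nrg1 (0.0504) and Rab5b (0.0593). The nearest genes to Adrb3 were Pparg (0.369), the master regulator of fat cell formation, Fabp4 (0.400), the fatty acid binding protein of fat cells, and Nrg4 (0.431), a factor secreted by brown fat. Pparg was at 17.2 RPKM in carotid body pool 2 and at 1.04 to 3.47 RPKM in the other 5 libraries.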

How the data were processed

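RNA was sequenced in 3 carotid body and 3 adrenal medulla pools. Per the labels' protocols, total RNA was amplified with a kit that makes antisense RNA, fragmented and made into Illumina libraries. Reads were aligned with Bowtie 0.9.8 to mm9, per the submitters' processing notes; the counting method is not given in the sources used here. The deposited values are RPKM made by the authors for 23511 of 26728 entries. The other 3217 have no mRNA length, hold raw reads and were left out. Reads were recovered by undoing the length scaling and taking the lowest resulting value of each library as 1 read, which gave whole numbers, within 0.01, for 106276 of 106276 values above 0.

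Genes of at least 1 RPKM in at least 3 libraries were tested with limma 3.58.1 (R 4.3.3) on log2(RPKM + 1), with a variance trend, two-sided, no block, and Benjamini-Hochberg adjustment over all 13357. Differences are given as the carotid body mean less the adrenal medulla mean, on a scale that understates the difference of low genes. P-values measure the spread between pools. Intervals on reads are exact and cover counting error only. Pools of 1 tissue differed by more than sampling noise (chi-square per gene 39.6 to 149). Deviations of same-numbered pools correlated at 0.259, 0.128 and 0.473 across genes, all above the cut of 0.1 used for pairing. Carotid body pool 2 and adrenal medulla pool 1 had 0.291, more than the 0.128 of the pools numbered 2. Carotid body pool 3 held 1292 reads of 4 Y-linked genes and adrenal medulla pool 3 held 7, so these pools differed in the sex makeup of their mice. These values do not establish that the numbers pair the samples. The main test therefore stands without a block, the pool block is an alternative only, and the Drd2 call under it depends on the assumed pairing. The code was checked on simulated data. Chromosome positions and transcript lengths came from GENCODE vM21 and RefSeq GRCm38.p6, a later build than mm9, and were not mixed with the reads' coordinates. The grouping of receptors by G protein was added after the values were seen. The members, lists and tests were chosen with earlier results of these data known. The rule for naming genes took all members, other receptors of the family, the 4 ligand enzymes, each called gene of the signalling lists and the 3 nearest profiles per tested member; genes named outside it (Kcnj genes, Rgs9, Deaf1, Got1l1, Chga, Pparg's values, Prph, Nefh, Prkar2a, Plcb1, Plcb3) were chosen after their values were seen. 1 receptor of the family is not reported here.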

Additional observations from a re-analysis of the deposited data

How the results depend on the processing

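Adrb1 (log2 0.74 to 2.60) and Drd4 (-0.39 to -3.40) kept direction and call in the alternatives that changed 1 choice and tested them, and with carotid body pool 2 and the third adrenal medulla pool left out together, with adjusted p-values of 9.15e-04 to 0.0109 and 4.21e-04 to 0.00968. With no filter as well as libraries left out, Drd4 stayed called (up to 0.0356), and Adrb1 was at 0.0176 to 0.0477 without 1 library but lost its call without that pair (0.0523). For the 5 tested members, pseudocounts of 0.1 and 5, median-ratio and quantile scaling, no variance trend, voom on the filtered genes and a pool block changed no other call than that of Drd2. The count of members higher in the carotid body, 1 in the main comparison, was 2 with no filter and with voom without the filter (Adrb1 and Adra2a), 2 with the replicate block and 2 without carotid body pool 1 (Adrb1 and Drd2), and 1 to 2 over the filtered fits that leave out 1 library. With no filter it was 2 to 3 over those fits, with Drd2 added without carotid body pool 1 and Adra1b without pool 2. Among the signalling genes, Adcy5 also lost its call with a pseudocount of 0.1 (0.0547), no filter (0.0788), median-ratio scaling (0.0752), quantile scaling (0.133) and no variance trend (0.0513). The count higher in the adrenal medulla, 1, was 0 with a filter of 3 RPKM, which only Adrb1 passed, and 1 to 1 without single libraries. Leaving out 1 library moved Adrb3 between -0.49 (without carotid body pool 2, a reversal) and 1.13, and it was -0.30 with both carotid body pool 2 and the third adrenal medulla pool left out. Drd2 relative to Th stayed between 1.94 and 2.80 and relative to Chga between 3.72 and 4.58. Voom without the filter, leaving out libraries without the filter, and the carotid body order without pool 2 were chosen after seeing the data. Drd2, Drd4 and the 4 genes under the filter had under 100 reads in each library, and the size of difference that 3 pools against 3 could detect for them was not tested.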
